A study of Mus musculus with 25 samples.

Results

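This account covers 9 mouse genes of hepatic insulin signalling and glucose output, Igfbp1, Pck1, G6pc, Slc37a4, Ppargc1a, Irs1, Irs2, Insr and Foxo1, in liver RNA from 25 mice. They were picked by gene symbol. Each symbol matched exactly 1 locus in either cohort, out of 46499 loci at 20 weeks and 46052 loci at 39 weeks. All 9 reached a cohort mean of at least 1 FPKM (fragments per length of transcript and per number of mapped fragments), as did 10963 loci at 20 weeks and 11441 loci at 39 weeks in total.

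The study compared livers of C57BL/6 mice labelled Ncoa5+/-, which carry an altered copy of the nuclear receptor coactivator gene Ncoa5, with wild type livers, and asked what long metformin treatment does in both genotypes. The 20-week cohort held 4 Ncoa5+/- and 4 wild type mice, none of them given metformin. The 39-week cohort held 5 Ncoa5+/- and 3 wild type mice that drank metformin at 250 mg per kg per day for 31 weeks from 8 weeks of age, and 5 Ncoa5+/- and 4 wild type mice without it. The cohorts had libraries from different facilities and were scaled apart, so differences between ages were not tested. All mice shared a standard diet given without restriction, and the hour of dissection is not given in the sources used here. The altered part of Ncoa5 is not described in the labels.

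Insulin acts on hepatocytes through its receptor, whose adaptor proteins activate the kinase Akt. Akt phosphorylates the transcription factor FOXO1 and keeps it out of the nucleus, which lowers transcription of fasting genes such as those for gluconeogenic enzymes. In fasting, glucagon acting through cAMP and the coactivator PGC-1alpha raises the same genes, and the liver releases glucose into the blood.

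In the 25 libraries, the 50 highest loci took 43.0% to 78.7% of all FPKM, and 3 libraries exceeded 70% (wild type replicate 4 at 20 weeks, untreated Ncoa5+/- replicate 3 and treated Ncoa5+/- replicate 5). Read counts are not in the values, so absolute depth is unknown. Steps between the lowest values put wild type replicate 3 at 20 weeks at about 3.41 times the depth of wild type replicate 4, and the other 20-week libraries at 1.02 to 1.31 times. At 39 weeks the libraries lay between 0.835 and 1.29 times that of untreated wild type replicate 4. Each ratio is the most common step among shared low loci, held by only 9.61% to 27.1% of them. For wild type replicate 3 at 20 weeks it was held by 13.0%. How the libraries were scaled is not given, so the ratios are rough and could include that scaling. Ncoa5 itself averaged 3.85 ± 0.88 FPKM in Ncoa5+/- and 4.01 ± 0.94 FPKM in wild type livers at 20 weeks (SD), and the genotypes also overlapped at 39 weeks with and without metformin, so its level does not check the labels. Genotypes below are those of the labels. Of the hepatocyte markers, Alb and Serpina1c are listed at 0 in every group and others in some groups, while the remaining ones summed to between 7900 and 18004 FPKM in each liver. Of the 7 adipocyte markers, Lep is listed at 0 in all groups but untreated wild type at 39 weeks. Plin1 is listed at 0 in untreated Ncoa5+/- livers of either age. The adipocyte list as a whole summed to between 1151 and 3045 FPKM in each liver. That sum was not split by marker, and no adipocyte content is read from it.

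The output enzymes were far more abundant than the signalling genes. Pck1, the cytosolic phosphoenolpyruvate carboxykinase that commits carbon to gluconeogenesis, averaged 1102 ± 431 FPKM at 20 weeks and 942 ± 377 FPKM at 39 weeks (SD over 8 and 17 mice). G6pc, the catalytic subunit of glucose-6-phosphatase, averaged 122 ± 72.3 FPKM at 20 weeks and 178 ± 70.1 FPKM at 39 weeks. Slc37a4, which carries glucose 6-phosphate into the endoplasmic reticulum where that phosphatase works, averaged 80.6 ± 22.1 FPKM at 20 weeks and 110.0 ± 22.1 FPKM at 39 weeks. FPKM is per transcript length, so these levels can be ranked, and only Pck1 lay above the whole range of every other gene, its lowest livers at 499 and 341 FPKM against the highest G6pc values of 245 and 272 FPKM.

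Igfbp1, a secreted binding protein for insulin-like growth factors that insulin represses in liver, had a median of 18.1 FPKM at 20 weeks and 9.69 FPKM at 39 weeks. Its range, 3.01 to 137 and 2.52 to 168 FPKM, overlapped those of G6pc, Slc37a4 and Insr. The insulin receptor gene Insr averaged 15.3 ± 1.49 FPKM at 20 weeks and 16.2 ± 1.22 FPKM at 39 weeks, above every value of the 4 genes below it in the order. Foxo1 averaged 3.71 ± 0.79 FPKM at 20 weeks and 4.72 ± 1.01 FPKM at 39 weeks. Irs2, an adaptor of the receptor, averaged 3.97 ± 2.01 FPKM at 20 weeks and 3.45 ± 1.45 FPKM at 39 weeks, with a range that overlapped that of Foxo1. Ppargc1a, which encodes PGC-1alpha, averaged 2.19 ± 1.26 FPKM at 20 weeks and 1.83 ± 0.90 FPKM at 39 weeks. The other adaptor, Irs1, averaged 1.20 ± 0.60 FPKM at 20 weeks and 1.74 ± 0.46 FPKM at 39 weeks and overlapped Ppargc1a in both cohorts.

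**Figure D1:**
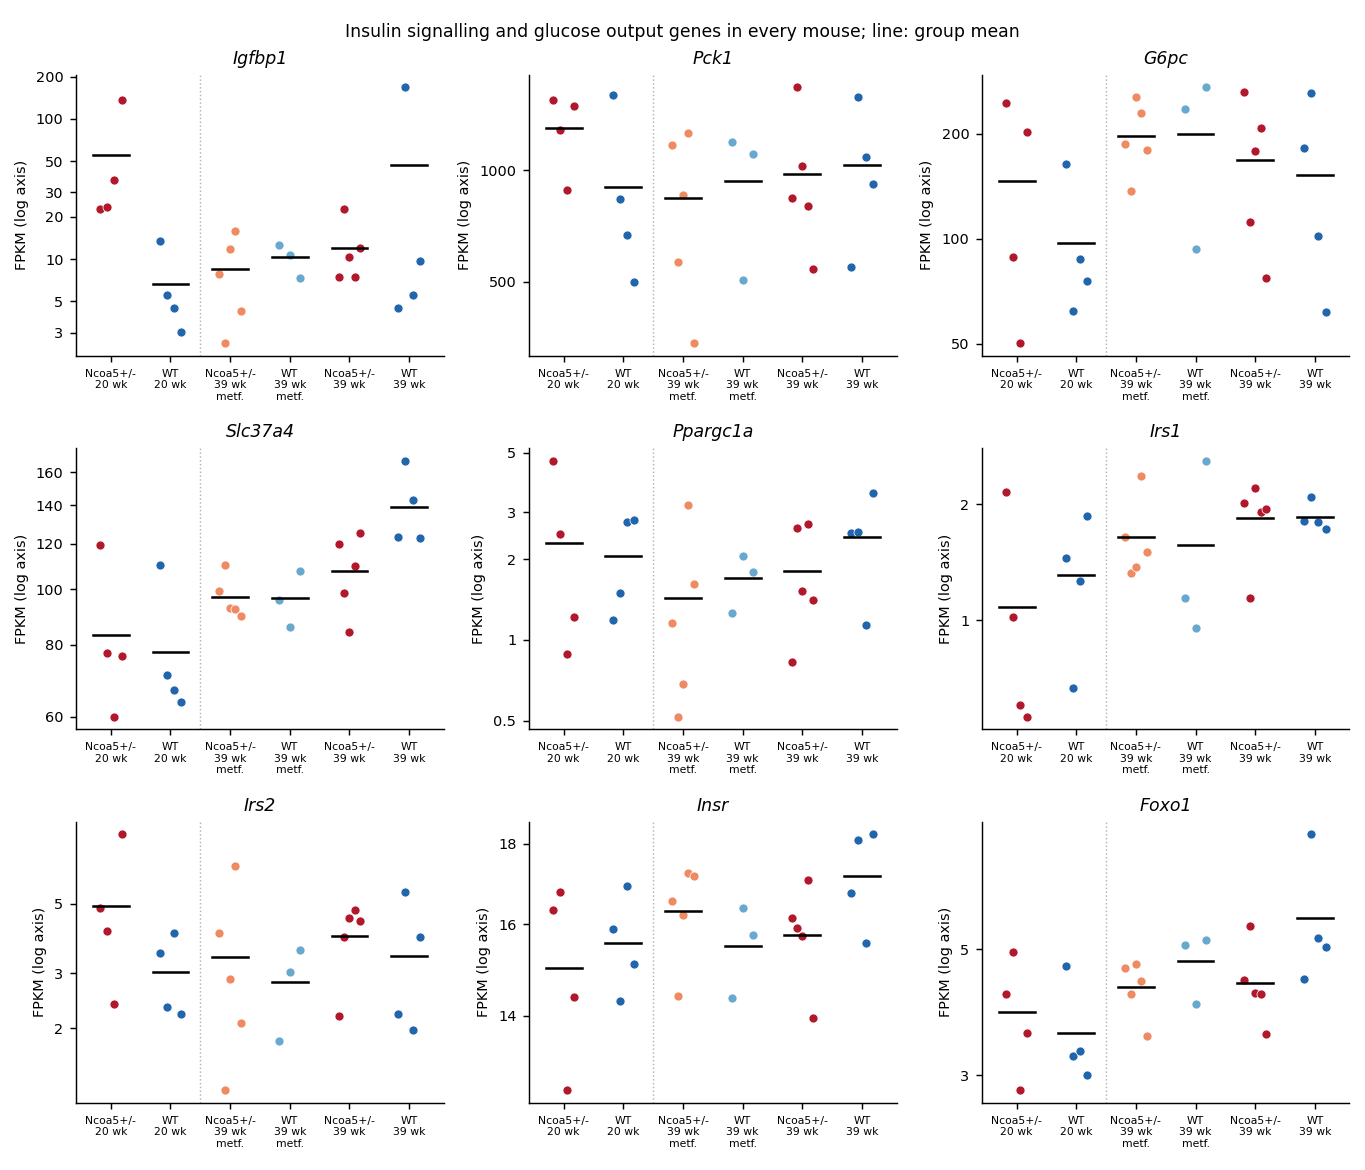
FPKM of each of the 9 genes in every mouse (log axis), 1 point per mouse, with a line at the group mean; the dotted line parts the 20-week from the 39-week cohort and metf. marks metformin. Igfbp1 at 20 weeks lay between 22.8 and 137 FPKM in Ncoa5+/- livers and between 3.01 and 13.4 FPKM in wild type livers, and Slc37a4 at 39 weeks lay highest in untreated wild type livers, at 123 FPKM and above.

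The upstream sequences of 4 of these genes are given because they carry short motifs named after the pathway, and because the spread of their genes between mice was among the widest. Ppargc1a also meets both points, and its sequence is not printed. The 4 sequences are RefSeq promoters on GRCm38.p6, sense strand of the gene, ended before the annotated GENCODE start where that lies further upstream. RefSeq entries were found for 8 of the 9 genes. Capitals mark a match to CAAAACA, the insulin response sequence known from the human IGFBP1 promoter (read on the other strand as TGTTTTG), or to TGACG, the core of the cAMP response element (read on the other strand as CGTCA).
Igfbp1, chr11:7197537-7197781, plus strand: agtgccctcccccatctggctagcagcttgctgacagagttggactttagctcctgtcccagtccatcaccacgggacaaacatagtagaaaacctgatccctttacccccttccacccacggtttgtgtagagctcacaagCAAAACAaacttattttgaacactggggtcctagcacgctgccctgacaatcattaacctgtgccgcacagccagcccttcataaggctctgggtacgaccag
Pck1, chr2:173152823-173153047, plus strand: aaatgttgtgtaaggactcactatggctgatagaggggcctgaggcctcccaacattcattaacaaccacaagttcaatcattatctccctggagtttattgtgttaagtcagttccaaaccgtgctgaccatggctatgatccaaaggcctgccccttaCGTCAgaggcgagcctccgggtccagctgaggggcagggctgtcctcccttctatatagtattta
G6pc, chr11:101367466-101367560, plus strand: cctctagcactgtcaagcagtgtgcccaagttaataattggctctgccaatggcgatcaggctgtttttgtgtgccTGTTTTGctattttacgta
Irs2, chr8:11008930-11009179, minus strand: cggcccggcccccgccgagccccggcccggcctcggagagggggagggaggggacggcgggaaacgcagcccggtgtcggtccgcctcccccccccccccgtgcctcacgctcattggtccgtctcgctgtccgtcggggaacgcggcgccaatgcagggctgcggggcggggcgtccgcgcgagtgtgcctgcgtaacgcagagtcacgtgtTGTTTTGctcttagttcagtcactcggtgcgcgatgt

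Searching both strands of the 250 bases before the RefSeq start, CAAAACA was found in Igfbp1 at 108 to 102 bases before the start, in G6pc at 174 to 168, in Irs2 at 37 to 31, and in Irs1 at 111 to 105 and at 32 to 26. That motif occurs in 5.561% of 32851 RefSeq promoters of the same length. TGACG was found in Pck1 at 90 to 86, in Ppargc1a at 49 to 45 and in Irs1 at 118 to 114 bases before the start, and occurs in 17.77% of promoters. The whole cAMP element TGACGTCA, which contains TGACG and occurs in 1.546%, and the FOXO core GTAAACA, in 3.166%, were found in none of the 8. For Slc37a4 only the RefSeq entry nearest the locus edge was searched, of 3 listed. Its searched bases, chr9:44398104-44398353, lie past the GENCODE start at 44396852. For G6pc only 95 of the 250 searched bases lie before the GENCODE start. A match is a string of letters and was not tied to any measured level.

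The loci of Igfbp1, G6pc and Pck1 overlap no other annotated gene. Igfbp1 spans chr11:7197782-7202546, Pck1 chr2:173153048-173159273 and, at 39 weeks, G6pc chr11:101367561-101377903, all on the plus strand of GRCm38. Foxo1 (chr3:52268336-52353221, plus strand), Insr, Irs1 and Irs2 each overlap an annotated gene on the opposite strand, Ppargc1a overlaps 4 transcripts of unsettled status and Slc37a4 holds the microRNA Mir7085. Whether the counting used strand is not given in the sources used here, so reads of these 6 loci could include some from their neighbours. The Irs2 locus also runs 45612 bases beyond the RefSeq start.

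Mice of the same group differed far more in the fasting genes than in the receptor. The SD within groups on the log2(FPKM + 1) scale was 1.01 for Igfbp1 at 20 weeks and 1.27 at 39 weeks, larger than in 97.4% and 98.6% of the tested loci. At 39 weeks untreated wild type replicate 2 had 168 FPKM of Igfbp1, and no other liver had more than 22.6 FPKM. The Igfbp1 SD without that liver was not computed. G6pc followed with 0.86 and 0.70, larger than in 96.5% and 96.6% of loci, and Pck1 with 0.57 and 0.68, larger than in 91.3% and 96.4%. Ppargc1a and Irs2 lay at 0.58 and 0.48 at 20 weeks and 0.47 and 0.51 at 39 weeks. Adding 1 FPKM narrows the spread of genes at a few FPKM, so the order of the genes depends on it. At 39 weeks the highest liver had 6.86 times the FPKM of the lowest for Ppargc1a, and 4.92 times for Pck1. Insr was the steadiest of the 9, at 0.14 and 0.10, with only 14.9% and 8.86% of tested loci below it. Slc37a4 had 0.39 at 20 weeks and 0.19 at 39 weeks, near the median locus at the later age (0.18). These positions are a description and were not tested.

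**Figure D2:**
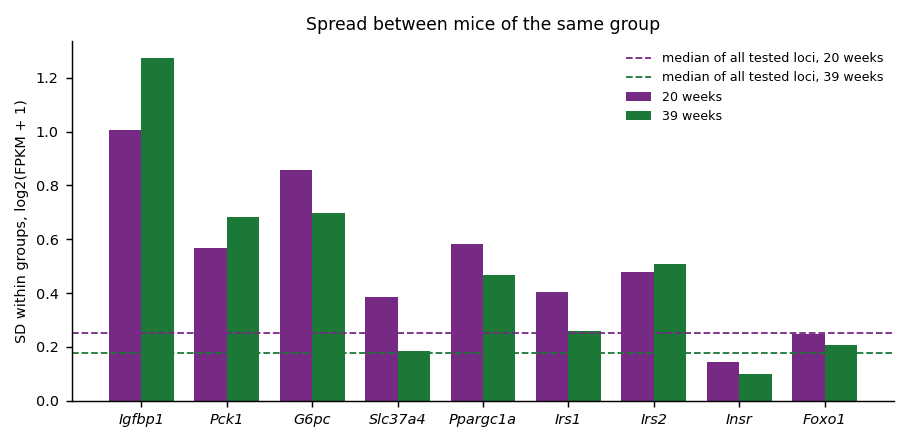
SD within groups of log2(FPKM + 1) for each gene at 20 weeks (purple) and 39 weeks (green), from the models over 8 and 17 mice; dashed lines mark the median of all tested loci, 0.25 and 0.18. Igfbp1 stands highest in both cohorts and Insr lies under both medians. The Igfbp1 SD at 39 weeks includes 1 liver at 168 FPKM, the others having at most 22.6 FPKM.

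At 20 weeks, Igfbp1 was the gene of the 9 with the widest gap between genotypes. Its level was 22.8, 23.6, 36.8 and 137 FPKM in the 4 Ncoa5+/- livers, against 13.4, 5.53, 4.46 and 3.01 FPKM in the 4 wild type livers. The groups did not overlap, the lowest Ncoa5+/- value being above the highest wild type value, and 1 Ncoa5+/- mouse stood far above the other 3. The log2 fold change, on log2(FPKM + 1), was 2.63 ± 0.60 (SE; 95% interval 1.28 to 3.99), with an unadjusted limma p of 0.00179, rank 11 of 10963 loci. After Benjamini-Hochberg adjustment over all loci the p was 0.603, so Igfbp1 did not pass the threshold of 0.05, and neither did any other locus (0% called). Without the highest mouse, Ncoa5+/- replicate 4, the log2 fold change was 2.06. Groups without overlap and with Ncoa5+/- above wild type made up 2.96% of tested loci, and an unadjusted p under 0.05 was reached by 7.48%; 1 of the 9 genes did either, and it was Igfbp1.

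Marker sums of 2 cell types also separated the genotypes in these livers, and the sums of the other marker lists overlapped. The lists were not tested. Of single loci, 2.96% were without overlap and higher in Ncoa5+/- livers, and no such share was computed for sums. The hepatocyte marker sum was 11765 to 18004 FPKM in Ncoa5+/- livers and 7900 to 11593 FPKM in wild type livers, without overlap. Of its 12 markers 4 are listed at 0 in Ncoa5+/- and 5 in wild type livers. Alb, Apoa1, Cyp3a11 and Serpina1c were at 0 in both, so the sum rests on the other markers. The erythroid sum, over all 6 markers, was 263 to 346 FPKM in Ncoa5+/- livers and 222 to 260 FPKM in wild type livers, also without overlap. Kupffer cell and macrophage markers, all 10 above 0, summed to 57.1 to 98.0 FPKM in Ncoa5+/- livers and 67.7 to 173 FPKM in wild type livers, with overlap. Their part in the Igfbp1 difference was not tested. In bulk liver, fewer cells of a type and less RNA per cell cannot be told apart.

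The other 8 genes overlapped between the genotypes at 20 weeks. Pck1 measured 1552, 1287, 885 and 1491 FPKM in Ncoa5+/- livers, against 1594, 837, 670.1 and 499 FPKM in wild type livers. Only 1 wild type liver reached the Ncoa5+/- level, and the log2 fold change was 0.64 ± 0.35 (SE; adjusted p 0.603). Irs2 measured 4.86, 4.09, 2.40 and 8.32 FPKM in Ncoa5+/- livers, against 3.49, 2.34, 4.03 and 2.23 FPKM in wild type livers, a log2 fold change of 0.49 ± 0.29 (SE; adjusted p 0.608). G6pc measured 245, 88.6, 50.1 and 202 FPKM in Ncoa5+/- livers, against 164, 62.0, 87.3 and 75.5 FPKM in wild type livers. Both extremes of G6pc were Ncoa5+/- livers, and its log2 fold change was 0.43 ± 0.51 (SE; adjusted p 0.746).

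The log2 fold changes of the remaining genes at 20 weeks, Insr, Foxo1, Ppargc1a, Slc37a4 and Irs1, were between -0.18 and 0.09, each with an interval that included 0. The interval was narrowest for Insr, -0.33 to 0.22, and reached -0.78 to 0.82 for Ppargc1a. For Ppargc1a even the sign turned with the scaling: the log2 fold change was 0.02 in the model as stated and -0.01 after a median shift of the libraries.

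In the authors' deposited table for the same mice, Igfbp1 had a log2 fold change of 3.04 and Irs2 of 0.85, both with a q-value of 0.00413. That table, in the format of Cuffdiff, called 294 of 13975 tested loci, or 2.1%, and of the 9 genes it called these 2. The authors' deposited table gave G6pc a log2 fold change of 0.54 with a q-value of 0.274 and Pck1 0.59 with 0.505.

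**Figure D3:**
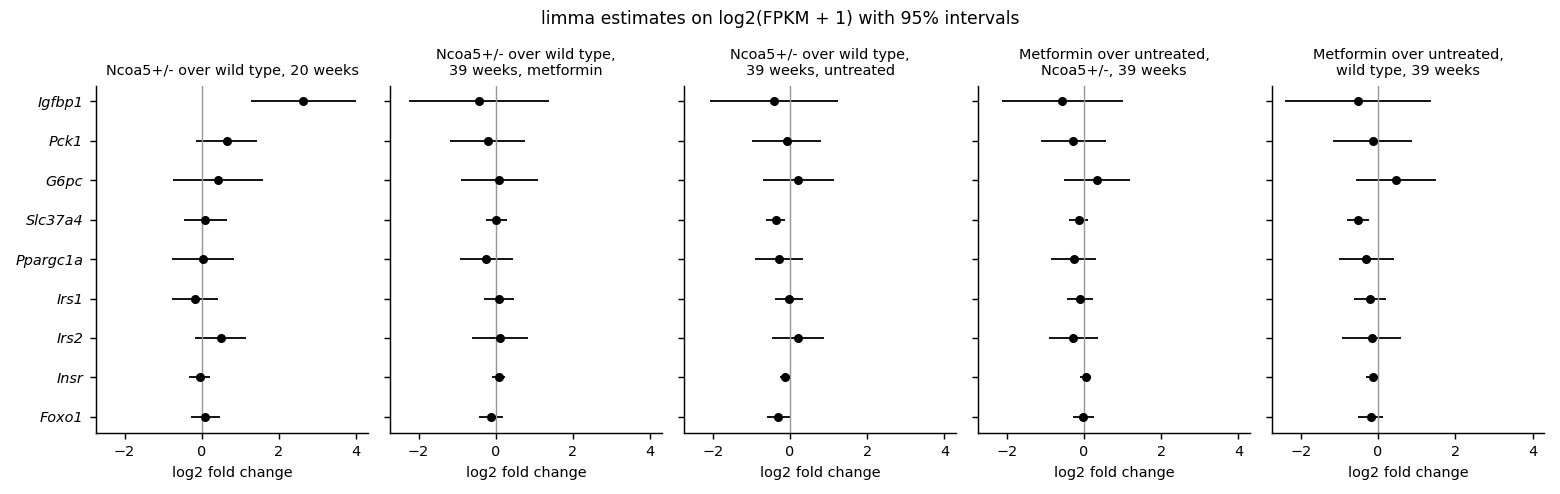
log2 fold change of each gene in 5 comparisons with 95% intervals from limma on log2(FPKM + 1), with 4 against 4 mice at 20 weeks and 3 to 5 mice a group at 39 weeks. The Igfbp1 interval at 20 weeks runs from 1.28 to 3.99, while the Insr intervals are the narrowest in each panel.

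Other genes of the pathway, taken from 6 lists that leave out the 9, did not pass at 20 weeks either: 0 of 33 insulin signal transduction genes, 0 of 17 for gluconeogenesis and glucose release, 0 of 17 for glycogen, 0 of 32 for cAMP, glucagon and fasting regulators, 0 of 11 insulin-induced genes and 0 of 9 for insulin-like growth factors. Among the insulin-induced and fed-state genes, 1 of 11 had a log2 fold change above 0, against 54.4% of all loci, and the median was -0.13, against 0.03 for all loci. Thrsp, a lipogenic gene that feeding induces, averaged 234 ± 41.7 FPKM in Ncoa5+/- and 310 ± 43.0 FPKM in wild type livers (SD; log2 fold change -0.41, adjusted p 0.603). Among the fasting regulators 17 of 32 were above 0, with a median of 0.03. The smallest p there belonged to Pdk4, the kinase that shuts off pyruvate dehydrogenase in fasting, at 1.69 ± 0.34 FPKM in Ncoa5+/- and 0.79 ± 0.22 FPKM in wild type livers (log2 fold change 0.58, adjusted p 0.603). Tat, the tyrosine aminotransferase that glucocorticoids and fasting induce, averaged 774 ± 121 FPKM in Ncoa5+/- and 382 ± 259 FPKM in wild type livers (log2 fold change 1.20, adjusted p 0.603).

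At 39 weeks without metformin, Igfbp1 overlapped between the genotypes. It measured 7.41, 22.6, 10.3, 7.46 and 12.0 FPKM in Ncoa5+/- livers, against 4.47, 168, 5.52 and 9.69 FPKM in wild type livers. Of the wild type values 1, that of replicate 2, was above every other liver of the cohort, and the other 3 lay under the Ncoa5+/- median of 10.3 FPKM. The log2 fold change was -0.41 ± 0.78 (SE; adjusted p 0.965), and 0.72 without wild type replicate 2. The difference between the 2 ages was not tested.

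Slc37a4 and Foxo1 had the smallest p of the 9 in that comparison, both toward lower values in Ncoa5+/- livers. Slc37a4 measured 120.1, 98.4, 84.2, 109.97 and 125 FPKM in Ncoa5+/- livers, against 124, 167, 143 and 123 FPKM in wild type livers. A single Ncoa5+/- liver reached the wild type range, and the log2 fold change was -0.37 ± 0.12 (SE; unadjusted p 0.00699, adjusted p 0.526). Foxo1 measured 4.42, 5.50, 4.19, 4.17 and 3.55 FPKM in Ncoa5+/- livers, against 4.44, 7.96, 5.23 and 5.04 FPKM in wild type livers. Its groups overlapped, the Ncoa5+/- liver at 5.50 FPKM lying above every wild type liver but that at 7.96 FPKM. The Foxo1 log2 fold change was -0.30 ± 0.14 (SE; unadjusted p 0.0440, adjusted p 0.872). Of the 9 genes 0 were called, against 0.262% of loci, 2 reached an unadjusted p under 0.05, against 5.62% of loci, and 0 were without overlap, against 1.81%. Without wild type replicate 2 the Slc37a4 log2 fold change was -0.28 and that of Foxo1 was -0.15.

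The other 6 genes overlapped widely between these groups. Pck1 averaged 977 ± 428 FPKM in Ncoa5+/- and 1034 ± 429 FPKM in wild type livers, and G6pc 168 ± 74.6 FPKM in Ncoa5+/- and 152 ± 88.8 FPKM in wild type livers (SD, n = 5 and 4). Irs1 averaged 1.85 ± 0.41 FPKM in Ncoa5+/- and 1.86 ± 0.16 FPKM in wild type livers. Irs2 averaged 3.95 ± 1.03 FPKM in Ncoa5+/- and 3.39 ± 1.62 FPKM in wild type livers. Their log2 fold changes, with those of Ppargc1a and Insr, ran from -0.28 to 0.22. Insr, at 15.8 ± 1.13 FPKM in Ncoa5+/- and 17.2 ± 1.26 FPKM in wild type livers, had the tightest interval, -0.27 to 0.04.

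Under metformin all 9 genes overlapped between the genotypes; groups without overlap made up 3.72% of loci. Slc37a4 averaged 97.0 ± 8.15 FPKM in treated Ncoa5+/- livers and 96.4 ± 10.7 FPKM in treated wild type livers (SD, n = 5 and 3). The log2 fold change was 0.01 with an interval of -0.27 to 0.29. Pck1 averaged 839 ± 392 FPKM in treated Ncoa5+/- and 935 ± 376 FPKM in treated wild type livers. The 9 log2 fold changes ran from -0.44 for Igfbp1 to 0.11 for Irs2, 0 were called against 0.157% of loci, and 0 reached an unadjusted p under 0.05 against 4.35%.

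Of the pathway lists, 0 of the 123 genes tested at 39 weeks passed in either genotype comparison. The fed-state list had 1 of 12 genes above 0 without metformin, with a median of -0.16, against -0.02 for all loci and 44.4% of loci above 0. Its smallest p belonged to Pnpla3, an acyltransferase gene that insulin induces, which was the gene above 0 (log2 fold change 0.59, adjusted p 0.900). The fasting regulators had 5 of 32 genes above 0 without metformin, with a median of -0.12, and 22 of 32 under metformin, with a median of 0.06. Angptl4, a secreted inhibitor of lipoprotein lipase that fasting induces, had the smallest p among them without metformin, at 40.5 ± 10.6 FPKM in untreated Ncoa5+/- and 64.2 ± 22.1 FPKM in untreated wild type livers (SD; log2 fold change -0.61, adjusted p 0.877). Sik1, a kinase that cAMP induces, was one of those above 0, with 9.87 ± 2.40 FPKM in untreated Ncoa5+/- and 6.22 ± 4.59 FPKM in untreated wild type livers (log2 fold change 0.75, adjusted p 0.878). Under metformin 0 of the 9 insulin-like growth factor genes were above 0, with a median of -0.23, against 47.7% of loci; Igfbp4, another binding protein, had the smallest p there (log2 fold change -0.25, adjusted p 0.936).

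Metformin was compared with no treatment in each genotype at 39 weeks. These comparisons share groups with those of genotype, so they are not separate evidence. In wild type livers Slc37a4 measured 95.7, 86.1 and 107 FPKM with metformin, against 124, 167, 143 and 123 FPKM without. The groups did not overlap, with every treated liver under every untreated one. The log2 fold change was -0.52 ± 0.14 (SE; interval -0.81 to -0.23; unadjusted p 0.00161), with an adjusted p of 0.288. Loci that did not overlap in that direction made up 3.96%, loci called 0% and loci with an unadjusted p under 0.05 9.35%; of the 9 genes, 0 were called and only Slc37a4 met the other 2 criteria.

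In Ncoa5+/- livers Slc37a4 measured 99.5, 110.2, 92.9, 92.5 and 90.02 FPKM with metformin, against 120.1, 98.4, 84.2, 109.97 and 125 FPKM without. These groups overlapped, and the log2 fold change was -0.14 ± 0.11 (SE; adjusted p 0.743). The interaction, which asks whether the response to metformin differed between the genotypes, was 0.38 ± 0.18 for Slc37a4 (SE; unadjusted p 0.0466, adjusted p 0.991). It was the 1 gene of the 9 with an unadjusted p under 0.05 in the interaction, against 2.79% of loci, and 0 of the 9 were called, against 0% of loci.

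Igfbp1 with metformin measured 7.84, 2.52, 11.7, 15.9 and 4.30 FPKM in Ncoa5+/- livers, against 7.41, 22.6, 10.3, 7.46 and 12.0 FPKM in untreated Ncoa5+/- livers. Wild type livers had 12.7, 10.7 and 7.40 FPKM with metformin, against 4.47, 168, 5.52 and 9.69 FPKM without. Both pairs overlapped, and the log2 fold changes were -0.56 ± 0.74 in Ncoa5+/- and -0.53 ± 0.89 in wild type livers (SE; adjusted p 0.857 and 0.890). Without untreated wild type replicate 2, the wild type value was 0.61, which reverses it. In the authors' deposited table for metformin in Ncoa5+/- livers, Igfbp1 had a log2 fold change of -0.49 with a q-value of 0.169; that table called 1.22% of loci and 0 of the 9 genes.

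G6pc had positive log2 fold changes under metformin in either genotype. It measured 187, 137, 255, 229 and 179 FPKM in treated Ncoa5+/- livers, against 263, 111, 178, 208 and 77.1 FPKM in untreated ones, a log2 fold change of 0.33 ± 0.41 (SE; adjusted p 0.842). In wild type livers it measured 235, 93.6 and 272 FPKM with metformin, against 182, 262, 102 and 61.6 FPKM without, a log2 fold change of 0.46 ± 0.49 (SE; adjusted p 0.797). All 4 sets overlapped, and the intervals ran from -0.53 to 1.20 and from -0.58 to 1.50. Pck1 had log2 fold changes of -0.27 in Ncoa5+/- and -0.14 in wild type livers, with intervals about as wide. Without treated Ncoa5+/- replicate 5, the Ncoa5+/- value of Pck1 was 0.01.

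Among the signalling genes, Insr had a log2 fold change of 0.05 with metformin in Ncoa5+/- livers (interval -0.10 to 0.19) and -0.14 in wild type livers (interval -0.31 to 0.04). In Ncoa5+/- livers Foxo1 had -0.02, Irs1 -0.11, Irs2 -0.27 and Ppargc1a -0.26. In wild type livers Foxo1 had -0.19, Irs1 -0.21, Irs2 -0.16 and Ppargc1a -0.30. The smallest adjusted p among them was 0.620, for Insr in wild type livers. In Ncoa5+/- livers 0 of the 9 genes reached an unadjusted p under 0.05, against 8.83% of loci, 0 were called, against 0%, and 0 were without overlap, against 1.57%.

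Treated Ncoa5+/- livers were also set against untreated wild type livers. Slc37a4 was again without overlap, at 90.02 to 110.2 FPKM in treated Ncoa5+/- and 123 to 167 FPKM in untreated wild type livers, and every treated Ncoa5+/- liver lay lower. Its log2 fold change was -0.51 ± 0.12 (SE; unadjusted p 0.000648, adjusted p 0.101), the smallest adjusted p of any of the 9 in the 7 comparisons. The adjusted p ran from 0.0828 to 0.241 over the other settings and left-out mice. Foxo1 had a log2 fold change of -0.31 ± 0.14 (SE; adjusted p 0.368), at 3.52 to 4.70 FPKM in treated Ncoa5+/- and 4.44 to 7.96 FPKM in untreated wild type livers. Of the 9 genes 0 were called, against 0.262% of loci, 2 had an unadjusted p under 0.05, against 12.1%, and 1 was without overlap and lower, against 2.19%.

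Over the pathway lists in the 2 metformin comparisons, no gene passed. In the comparison of treated Ncoa5+/- with untreated wild type livers 1 of the 19 genes for gluconeogenesis and glucose release passed and fell: Gpt2, an alanine aminotransferase that turns alanine into pyruvate. It averaged 123 ± 11.9 FPKM in treated Ncoa5+/- and 191 ± 22.7 FPKM in untreated wild type livers (SD, n = 5 and 4). Its log2 fold change was -0.63 ± 0.10 (SE; adjusted p 0.0102), and in a fit of these 2 groups alone the adjusted p was 0.0541, which ends the call. Its paralog Gpt averaged 162 ± 28.3 FPKM in treated Ncoa5+/- and 227 ± 20.8 FPKM in untreated wild type livers (log2 fold change -0.50, adjusted p 0.0829). Treated wild type and untreated Ncoa5+/- livers had intermediate Gpt2, at 146 ± 8.61 and 149 ± 15.4 FPKM. The median log2 fold change of that list was -0.16, against -0.01 for all loci, with 5 of 19 genes above 0 against 46.3% of loci. Of the fasting regulators 11 of 32 were above 0 in this comparison, with a median of -0.07. Their smallest p belonged to Crebbp, the gene of the coactivator CBP that acts with the cAMP response factor, at 3.17 ± 0.21 FPKM in treated Ncoa5+/- and 3.99 ± 0.37 FPKM in untreated wild type livers (SD; log2 fold change -0.26, adjusted p 0.181). Fgf21, a hormone that the fasting liver secretes, was on the other side of 0 and averaged 9.34 ± 9.72 FPKM in treated Ncoa5+/- and 1.30 ± 0.96 FPKM in untreated wild type livers, without passing (log2 fold change 1.71, adjusted p 0.245).

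Most pairs of the 9 genes correlated positively from mouse to mouse. Of the 36 pairs, 30 had a positive Pearson correlation of log2(FPKM + 1) at 20 weeks and 34 at 39 weeks, with medians of 0.43 and 0.24. The share of positive pairs among all tested loci was not computed, so these counts do not set the 9 genes apart from other genes. At 39 weeks 1 pair passed, Pck1 with Foxo1. Its r was 0.77 over 17 mice (two-sided permutation p 0.00025, adjusted over 36 pairs 0.009), and Spearman's rho was 0.80 (adjusted p of the permutation test 0.0079). With each group centred on its mean the r was 0.85, and without the 2 mice farthest from the Pck1 median it was 0.71. Leaving out any 1 mouse gave 0.73 to 0.81. At 20 weeks the same pair had r 0.74 (exact permutation p 0.0433, adjusted 0.184).

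At 39 weeks Igfbp1 correlated with Foxo1 at r 0.74, with Irs2 at 0.61 and with Pck1 at 0.60, and Ppargc1a with Irs2 and with Insr at 0.64 each, all with an adjusted permutation p of 0.0502. The relation of Igfbp1 and Foxo1 depends on 1 mouse: leaving out 1 mouse took r as low as 0.31. Without the 2 mice farthest from the Igfbp1 median r was 0.28, and rho over all mice was 0.33. At 20 weeks 0 pairs passed by r or by rho, and 8 had an unadjusted permutation p under 0.05. The smallest p belonged to G6pc with Slc37a4, the phosphatase and its transporter, at r 0.83 (exact permutation p 0.0117, adjusted 0.184), against r -0.11 for the same pair at 39 weeks. G6pc with Irs2 had r 0.78 and Pck1 with Slc37a4 0.77 at 20 weeks, and 0.04 and 0.20 at 39 weeks. The difference between cohorts was not tested.

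**Figure D4:**
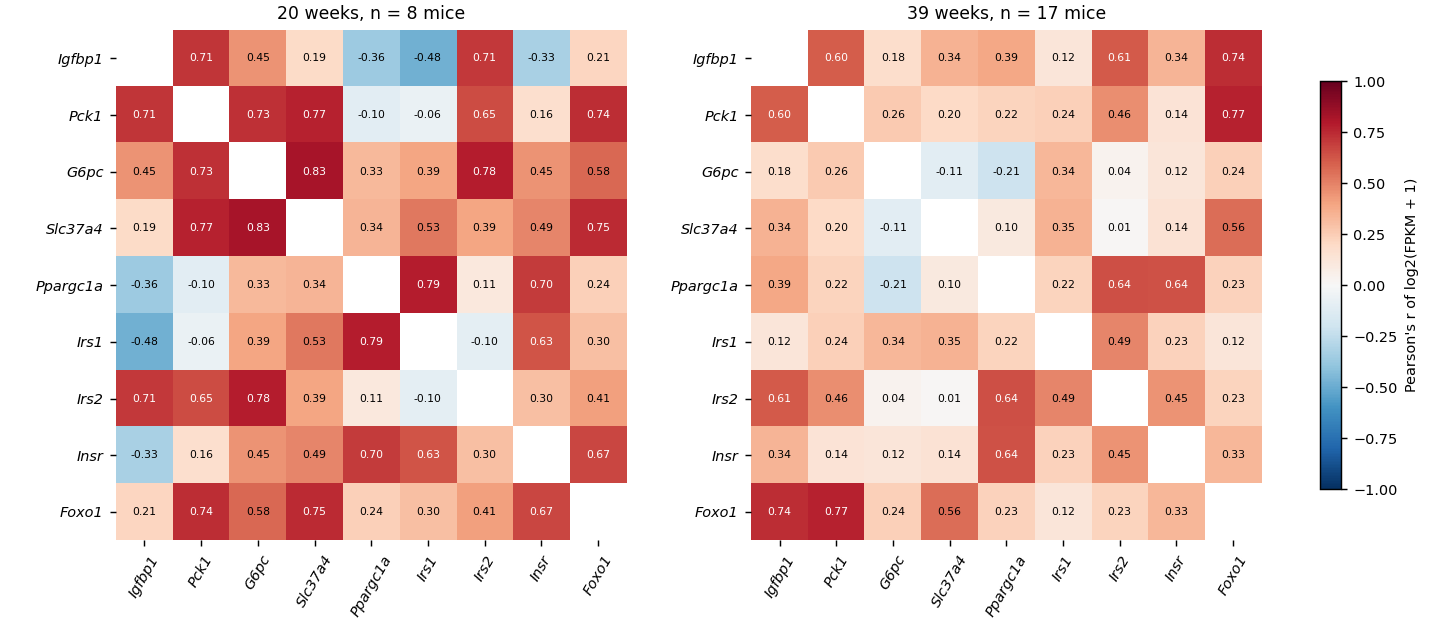
Pearson's r of log2(FPKM + 1) for the 36 pairs at 20 weeks (8 mice) and 39 weeks (17 mice), red positive and blue negative. G6pc with Slc37a4 shows 0.83 at 20 weeks and -0.11 at 39 weeks, and Pck1 with Foxo1 shows 0.74 and 0.77.

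For each gene, the symbols most like it among 9866 measured in both cohorts were ranked by the lower of the 2 cohort correlations. These are descriptions, picked for their size, and mice of one cohort share its processing and depth. Igfbp1 was most like Irf2bp2, a transcriptional corepressor, with r 0.94 in either cohort, and 0.85 at 20 weeks and 0.82 at 39 weeks without the 2 mice farthest from the Igfbp1 median. In the 2 livers with the most Igfbp1, Irf2bp2 stood at 19.3 FPKM (Ncoa5+/- replicate 4 at 20 weeks) and 31.5 FPKM (untreated wild type replicate 2 at 39 weeks), the highest of their cohorts. Socs3, a feedback inhibitor of cytokine signalling, and Ier3, an immediate early gene, followed at 0.85 each, and were lower without those mice, at 0.52 and 0.49 at 20 weeks.

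Pck1 was most like Tat and Klf15, a transcription factor of amino acid breakdown and gluconeogenesis, both with a lower r of 0.84. For Klf15 the r without the 2 farthest mice was 0.98 at 20 weeks and 0.87 at 39 weeks. Slc37a4 was most like Per2, a repressor of the circadian clock, with r 0.81 at 20 weeks and 0.88 at 39 weeks. Per2 measured 4.41, 3.60 and 7.75 FPKM in treated wild type livers, against 7.99, 13.0, 9.49 and 9.37 FPKM in untreated wild type livers. For both genes the treated wild type livers were the lower ones, without overlap, as for 3.96% of tested loci. Per2 was picked for its r with Slc37a4 over these same mice, so it is no separate evidence. How the Per2 level bears on the Slc37a4 difference was not tested.

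**Figure D5:**
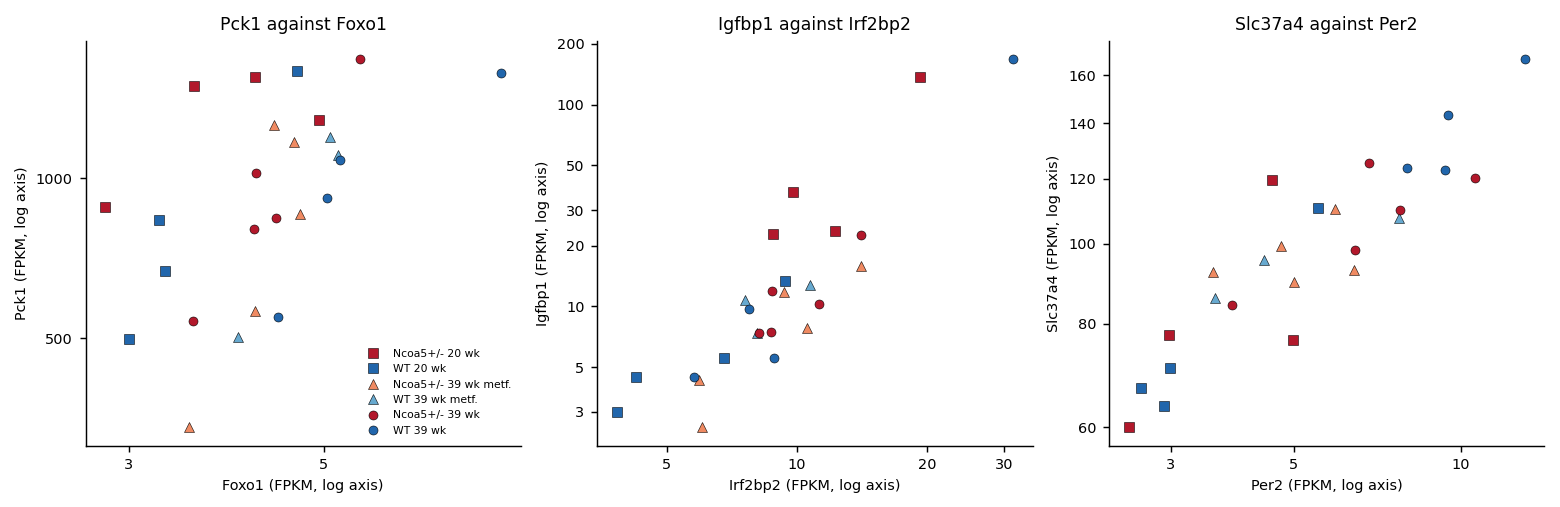
FPKM of Pck1 against Foxo1, Igfbp1 against Irf2bp2 and Slc37a4 against Per2 in every mouse (log axes), red Ncoa5+/- and blue wild type, squares 20 weeks, triangles 39 weeks with metformin, circles 39 weeks without. The 2 livers with the highest Igfbp1, at 137 and 168 FPKM, also have the highest Irf2bp2 of their cohorts.

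Foxo1 was most like Lpin2, a phosphatidate phosphatase gene, with r 0.83 at 20 weeks and 0.82 at 39 weeks. G6pc was most like C87436 (0.82 and 0.73), Insr like the sphingomyelin synthase gene Sgms2 (0.88 and 0.76) and Irs1 like the locus of Mir568 and Zbtb20 (0.80 and 0.74). Irs2 was most like Nr4a1, an immediate early nuclear receptor, with 0.79 and 0.67, and Ppargc1a like Cnot8, a subunit of the mRNA deadenylation complex, with 0.76 and 0.74. Without the 2 farthest mice the 20-week value was 0.16 for Irs2 with Nr4a1 and 0.12 for Ppargc1a with Cnot8. G6pc with C87436 then had 0.66 at 20 weeks and 0.37 at 39 weeks.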

How the data were processed

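RNA from 25 livers was sequenced in 2 cohorts, 8 mice at 20 weeks and 17 at 39 weeks, in 6 groups taken from the labels. Per the submitters' processing notes, the authors used Trimmomatic 0.33, TopHat2, Cufflinks and Cuffnorm with GRCm38.p5; how the libraries were scaled is not given in the sources used here. The deposited value of each locus and mouse is FPKM, made by the authors with Cuffnorm. The authors' deposited comparison tables hold, for each locus, the log2 fold change with its p-value and q-value; their sign was turned to Ncoa5+/- over wild type or treated over untreated. 1 was added to the deposited start coordinates, since the start of 57.9% and 54.7% of protein-coding loci then equals the annotated one.

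Values were analysed as log2(FPKM + 1) over loci with a cohort mean of at least 1 FPKM. A locus at 0 in a whole group while all mice of another group were above 0, averaging 1 FPKM or more, was left out as a failed estimate (15 and 14 loci). limma 3.58.1 in R 4.3.3 (lmFit, eBayes with trend) fitted the 2 groups at 20 weeks and the 4 groups at 39 weeks; 7 comparisons were read from these fits, with Benjamini-Hochberg adjustment over all loci and a threshold of 0.05. Correlations over 36 pairs used two-sided permutation tests in scipy 1.17.1, exact over all pairings at 20 weeks and with 100000 at 39 weeks, adjusted over the pairs of a cohort. Both procedures were tested on simulated data. Precision rests on the differences between mice alone. No 2 libraries held identical values. Genes that share reads with similar copies are uncertain.

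The 9 genes, the 6 pathway lists and the marker lists were chosen with earlier results of these data known, and they are no independent evidence. Genes named beside the 9 are list genes that passed or are among the 2 of each list with the smallest p in a comparison, and the most alike symbols (3 ranked per gene); 1 list gene that this rule names is not reported here. Where a symbol had several loci, the highest was used. The alternatives were pseudocounts of 0.1 and 5, no filter or 5 FPKM, quantile normalization, a median shift, no trend, array weights, compared groups only, failed estimates kept at 0, leaving out 3 libraries with over 70% of FPKM in their 50 highest loci, and leaving out each mouse.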

Additional observations from a re-analysis of the deposited data

Results flagged for a closer look

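Among the 9 genes, 45 sets of 4 or 5 mice were checked for a value far from the rest by Dixon's test on FPKM, and 4 were picked. By chance that test picks about 1 in 20 only if values are normally distributed, which was not tested. It was not run on log2(FPKM + 1), so the picks hold for the FPKM scale alone. Igfbp1 reached 137.06 FPKM in Ncoa5+/- replicate 4 at 20 weeks, while the next highest liver of the group had 36.8 FPKM. Igfbp1 reached 167.817 FPKM in untreated wild type replicate 2 at 39 weeks, while the next had 9.69 FPKM. Slc37a4 stood at 110.41 FPKM in wild type replicate 1 at 20 weeks, above a next value of 70.8 FPKM. Irs1 was low in untreated Ncoa5+/- replicate 2 at 39 weeks, at 1.14144 FPKM below a next value of 1.91 FPKM. The cause of each was not tested.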

How the results depend on the processing

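Of the 9 genes, 0 were called in any of the 7 comparisons under any alternative or left-out mouse that was run. The smallest adjusted p was 0.073, for Igfbp1 at 20 weeks with array weights; its log2 fold change ran from 2.08 to 3.08 over the alternatives and from 2.06 to 3.00 over left-out mice. Over all loci, keeping failed estimates at 0 called 13 at 20 weeks, 31 for genotype under metformin, 4 for metformin in Ncoa5+/-, 2 for metformin in wild type and 5 for the interaction, where 15 loci at 20 weeks and 14 at 39 weeks are no longer left out. Leaving out the 3 libraries with over 70% in their highest loci called 4 at 20 weeks. Fits of the compared groups only called 11 for genotype without and 6 with metformin. A pseudocount of 5 called 10 for genotype under metformin, and no filter called 2 for metformin in wild type and 2 for the interaction. A pseudocount of 0.1 let 6 pairs pass at 39 weeks.

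Some directions turned, none of them of a called difference. Ppargc1a at 20 weeks became -0.025 (pseudocount 0.1), -0.011 (median shift) and -0.27 (array weights). With array weights Irs1 for genotype without metformin became 0.057, Foxo1 for metformin in Ncoa5+/- 0.014, Igfbp1 for metformin in wild type 0.0061 and Irs2 for treated Ncoa5+/- over untreated wild type 0.023. Without the 3 libraries Pck1 became 0.074 for genotype under metformin and 0.056 for metformin in Ncoa5+/-, Foxo1 0.028 for metformin in Ncoa5+/- and Irs2 0.037 for treated Ncoa5+/- over untreated wild type. The cause was not tested.

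Leaving out each mouse in turn, loci called ranged from 0 to 4 at 20 weeks (4 without wild type replicate 4), 18 to 27 for genotype without metformin (18 without wild type replicate 2 or 4), 4 to 19 under metformin (4 and 5 without treated wild type replicates 2 and 3, 11 without replicate 1), 0 to 1 for metformin in wild type and for the interaction (1 without treated wild type replicate 1), and 15 to 76 for treated Ncoa5+/- over untreated wild type (76 without treated Ncoa5+/- replicate 4; 19, 15 and 16 without wild type replicates 2, 3 and 4). Pairs passing ranged from 0 to 1 at 20 weeks (1 without wild type replicate 1) and 1 to 8 at 39 weeks (8 without untreated Ncoa5+/- replicate 5; 6 without treated Ncoa5+/- replicate 1 or treated wild type replicate 3; 2 without untreated wild type replicate 1). The log2 fold changes that turned ranged at 20 weeks from -0.099 to 0.26 for Slc37a4, -0.28 to 0.25 for Ppargc1a, -0.11 to 0.023 for Insr and -0.0094 to 0.20 for Foxo1. For genotype without metformin they ranged from -0.93 to 0.72 for Igfbp1, -0.35 to 0.16 for Pck1, -0.14 to 0.55 for G6pc and -0.064 to 0.081 for Irs1. For genotype under metformin they ranged from -0.61 to 0.074 for Pck1, -0.39 to 0.38 for G6pc, -0.067 to 0.091 for Slc37a4, -0.084 to 0.36 for Irs1 and -0.13 to 0.31 for Irs2. For metformin in Ncoa5+/- they ranged from -0.46 to 0.014 for Pck1 and -0.074 to 0.054 for Foxo1, and in wild type from -1.04 to 0.61 for Igfbp1, -0.41 to 0.25 for Pck1 and -0.33 to 0.045 for Irs2. For treated Ncoa5+/- over untreated wild type they ranged from -1.49 to 0.16 for Igfbp1 and -0.29 to 0.15 for Irs2.

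For treated Ncoa5+/- over untreated wild type, Gpt2 had an adjusted p of 0.0541 in the fit of the compared groups only, while Gpt passed without treated Ncoa5+/- replicate 4 (0.0112) and Igfbp4 with quantile normalization (0.0366). No paired analysis was possible because the labels number mice, not replicates shared between groups. Read depth is unknown, so no counting interval is given, and groups of 3 to 5 mice leave wide intervals for the genes that vary most.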
